A study of Rattus norvegicus with 16 samples.

Results

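Wnt signalling genes were examined in rat defect tissue and neighbouring bone 4 weeks after osteotomy. Members were the genes whose symbols in the count table matched numbered Wnt ligands, Frizzled receptors (Fzd), secreted Frizzled-related proteins (Sfrp), Dickkopf proteins (Dkk) or R-spondins (Rspo), plus Lrp5, Lrp6, Wif1, Frzb, Axin2, Lef1, Lgr5, Nkd1, Nkd2 and Notum. Tcf7 and Apcdd1 were also sought but had no entry in the table used here. The rule gave 45 genes of 14476: 16 ligands, 10 receptors and co-receptors, 4 genes of the R-spondin branch (Rspo1, Rspo2, Rspo3 and the receptor Lgr5), 11 antagonists and 4 intracellular feedback or target genes. The rule matched symbols and used no measured value, but the members were chosen with earlier results of these data known.

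In the Masquelet technique a bone defect first receives a cement spacer, and tissue grows around it as an induced membrane before bone is grafted. All 4 animals were Sprague-Dawley rats, and every rat carried a plated osteotomy in each limb of a pair. One side of each rat held a spacer of polymethyl methacrylate (PMMA) and the opposite side was left empty, so the controls were operated and plated too. Each group had 1 library from each of the 4 rats. The groups were the induced membrane around the spacer (IM), the tissue from the empty osteotomy, which the labels call pre-fibrous non-union (PFNU), the bone next to the spacer (PMMA bone) and the bone next to the empty defect (BNED). The sources used here do not give age, sex or the bone operated on, and no unoperated tissue was analysed here.

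Wnt proteins are lipid-modified secreted ligands that bind a Frizzled receptor and, in the canonical branch, the co-receptors Lrp5 and Lrp6. Binding stops the breakdown of β-catenin, which enters the nucleus and acts with factors such as Lef1. Other Wnt proteins, with Wnt5a as the best-known example, act through Frizzled and Ror receptors without β-catenin. In bone the canonical branch promotes osteoblast formation and mass, and secreted antagonists such as sclerostin (the product of Sost, made by osteocytes) restrain it.

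Libraries held 40472228 to 76815879 counts, and the 45 genes made up 0.0670 to 0.179% of each library. Levels are given as CPM (counts over library size, scaled by TMM factors), always in the order of rats 1 to 4. CPM is not corrected for gene length, so levels are compared between samples and not between genes. Of 10 osteoblast and osteocyte markers, all 10 had counts in every library. Their summed share was 0.0176 to 0.316% of counts in IM and 0.0512 to 0.266% in PFNU, against 0.841 to 1.05% in PMMA bone and 0.299 to 0.815% in BNED. Genes of other cells differed too: a list of 10 muscle genes took 1.85 to 17.5% in IM, 5.12 to 12.4% in PFNU, 0.151 to 0.978% in PMMA bone and 0.310 to 3.43% in BNED. The 9 erythroid genes in the table took 0.0329 to 0.125% in IM, 0.0830 to 0.383% in PFNU and 3.44 to 5.99% in BNED. In PMMA bone they took 6.42% in rat 1 and 0.424 to 1.12% in the other rats, so the rat 1 library stood apart from its group. These are bulk tissues, in which fewer cells of a type and less RNA per cell cannot be told apart.

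**Figure D1:**
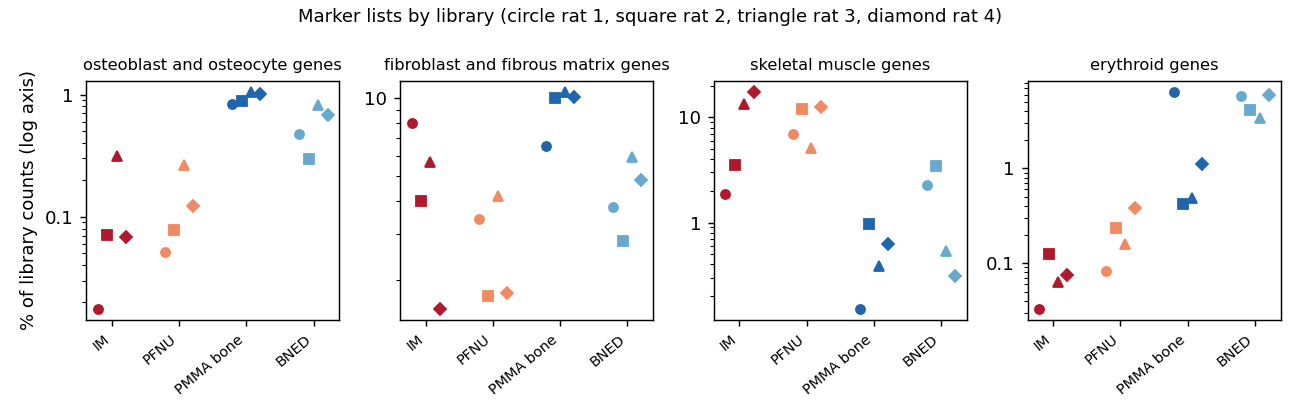
Summed share of library counts (%, log axis) of osteoblast and osteocyte, fibrous matrix, skeletal muscle and erythroid marker genes in each of the 16 libraries, by group, with a symbol for each rat. Osteoblast and osteocyte genes reached 0.841 to 1.05% in PMMA bone against 0.299 to 0.815% in BNED, and erythroid genes reached 6.42% in PMMA bone of rat 1.

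Promoters were available for 29 of the 45 genes in RefSeq sequences of build GRCr8. The 250 bases before the annotated start are shown for 6 genes on which the results turn: the targets Axin2, Nkd1, Nkd2 and Lef1, and the 2 genes that differed between IM and PFNU. Capitals mark matches on either strand to 4 motifs: CTTTGAA or CTTTGAT (bound by TCF and LEF factors), TGTGGT (RUNX factors), TGAGTCA or TGACTCA (AP-1) and GGGCGG (SP factors, CCGCCC on the other strand, copies may overlap).
Axin2 (chr10:94398535-94398784, plus strand): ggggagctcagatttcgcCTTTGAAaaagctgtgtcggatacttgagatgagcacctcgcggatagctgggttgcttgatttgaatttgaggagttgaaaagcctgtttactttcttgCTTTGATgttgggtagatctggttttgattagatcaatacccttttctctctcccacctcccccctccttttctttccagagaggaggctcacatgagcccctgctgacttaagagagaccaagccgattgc
Nkd1 (chr19:34722847-34723096, minus strand): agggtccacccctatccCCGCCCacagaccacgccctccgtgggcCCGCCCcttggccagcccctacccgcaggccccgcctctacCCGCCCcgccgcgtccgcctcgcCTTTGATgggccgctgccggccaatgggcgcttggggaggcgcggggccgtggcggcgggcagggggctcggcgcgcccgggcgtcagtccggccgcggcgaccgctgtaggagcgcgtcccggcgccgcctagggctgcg
Nkd2 (chr1:31272282-31272531, plus strand): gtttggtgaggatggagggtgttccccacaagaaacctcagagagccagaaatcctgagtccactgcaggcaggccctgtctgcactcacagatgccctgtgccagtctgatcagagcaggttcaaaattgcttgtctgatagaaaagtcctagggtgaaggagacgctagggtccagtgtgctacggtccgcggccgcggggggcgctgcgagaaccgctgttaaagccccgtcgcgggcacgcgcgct
Lef1 (chr2:222340463-222340712, plus strand): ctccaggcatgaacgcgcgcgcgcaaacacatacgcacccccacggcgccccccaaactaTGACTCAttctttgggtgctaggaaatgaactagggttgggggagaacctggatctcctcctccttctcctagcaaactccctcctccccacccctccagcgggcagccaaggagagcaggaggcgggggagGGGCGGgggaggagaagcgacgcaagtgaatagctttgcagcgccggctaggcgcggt
Rspo3 (chr1:30112279-30112528, plus strand): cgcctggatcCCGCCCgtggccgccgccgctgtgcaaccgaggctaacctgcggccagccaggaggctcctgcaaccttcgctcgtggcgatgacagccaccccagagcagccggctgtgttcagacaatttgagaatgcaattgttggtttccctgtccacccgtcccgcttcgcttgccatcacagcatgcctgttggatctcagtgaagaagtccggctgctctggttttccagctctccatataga
Fzd4 (chr1:152692257-152692506, plus strand): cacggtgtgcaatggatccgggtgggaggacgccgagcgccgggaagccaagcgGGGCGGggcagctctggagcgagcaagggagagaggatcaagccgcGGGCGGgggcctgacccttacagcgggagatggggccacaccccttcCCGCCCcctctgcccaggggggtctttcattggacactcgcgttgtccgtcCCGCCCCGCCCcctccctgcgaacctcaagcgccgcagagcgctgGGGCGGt
The Axin2 window holds a TCF/LEF match that begins 232 bases before the start and another that begins 132 bases before it, and the Nkd1 window holds 1 that begins 141 bases before it. Of the 29 member promoters, 4 held a TCF/LEF match (Axin2, Dkk1, Nkd1 and Wnt8a), against 7.58% of all 33469 promoters of the same length. The AP-1 motif occurred in Lef1, beginning 190 bases before the start, and in Wnt16, against 4.05% of all promoters. The RUNX motif occurred in Sfrp5 and Wnt1, against 14.5%. The SP motif occurred in 16 of the 29, against 30.5% of all promoters, and 6 copies lie in the Fzd4 window. The Nkd2 window holds none of the 4 motifs. A match is a run of letters and says nothing about binding in these tissues.

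Of the 45 genes, 39 passed the filter on low counts. The other 6 were Dkk1, Dkk4, Wnt10a, Wnt3, Wnt7a and Wnt8a, whose largest counts in any library were 7, 2, 14, 12, 7 and 4. Each of 12857 genes was tested with the edgeR quasi-likelihood F-test, and a gene was called when its Benjamini-Hochberg adjusted p over all of them was under 0.05. Fold changes are given on the log2 scale with the standard error (SE), first group over second.

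Between spacer and empty limb, 7 Wnt genes were called in bone and 2 in the defect. In PMMA bone against BNED, 7 of the 39 genes rose and none fell, a share of 17.9%, where 4.91% of all genes were called and 3.51% were called higher. The 7 were the ligands Wnt5a, Wnt5b and Wnt9b, the receptors Fzd2 and Fzd6, and Sfrp2 and Dkk3 of the antagonist class. Dkk3 was placed in that class by its name. Marker genes moved in the same comparison: 2 of 9 fibrous matrix genes and 2 of 8 endothelial genes rose and 1 of 10 muscle genes fell, while no osteoblast, cartilage or erythroid marker was called. Fibrous matrix genes took 6.52 to 10.6% of counts in PMMA bone and 2.83 to 5.92% in BNED, without overlap, and endothelial genes 0.0578 to 0.0929% and 0.0507 to 0.0612%. The summed share of osteoblast and osteocyte genes did not overlap either, at 0.841 to 1.05% in PMMA bone and 0.299 to 0.815% in BNED. Cartilage genes took 0.124 to 1.49% in PMMA bone and 0.00418 to 0.693% in BNED. The part of these cell type differences in the 7 calls was not tested. Log2 fold changes were above 0 for 33 of the 39 genes with a median of 0.73, where the median over all genes was -0.01. Levels did not overlap between the groups for 14 members, 13 higher in PMMA bone and 1 lower (Lef1), where 12% of all genes were higher without overlap and 7.05% lower. In IM against PFNU, 2 of the 39 genes fell (Fzd4 and Rspo3) and none rose, where 0.863% of all genes were called and 0.498% were called lower. The median of the 39 log2 fold changes was 0.04 there, and 0.01 over all genes. Over all genes, 47 were higher and 64 lower in IM, a split that became 27 and 62 with size factors computed by the RLE method.

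The calls in bone depended on single libraries. Without PMMA bone of rat 2, 3 or 4, or without BNED of rat 1 or 3, no member and no gene in the whole table was called with edgeR. Leaving out BNED of rat 2 left 2 members called and leaving out BNED of rat 4 left 5. Without PMMA bone of rat 1, the library with 6.42% erythroid counts, 10 members and 2578 genes in all were called: the same 7 and Nkd1, Wnt16 and Wnt7b. The 7 genes kept a log2 fold change above 0 in each of these fits.

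**Figure D2:**
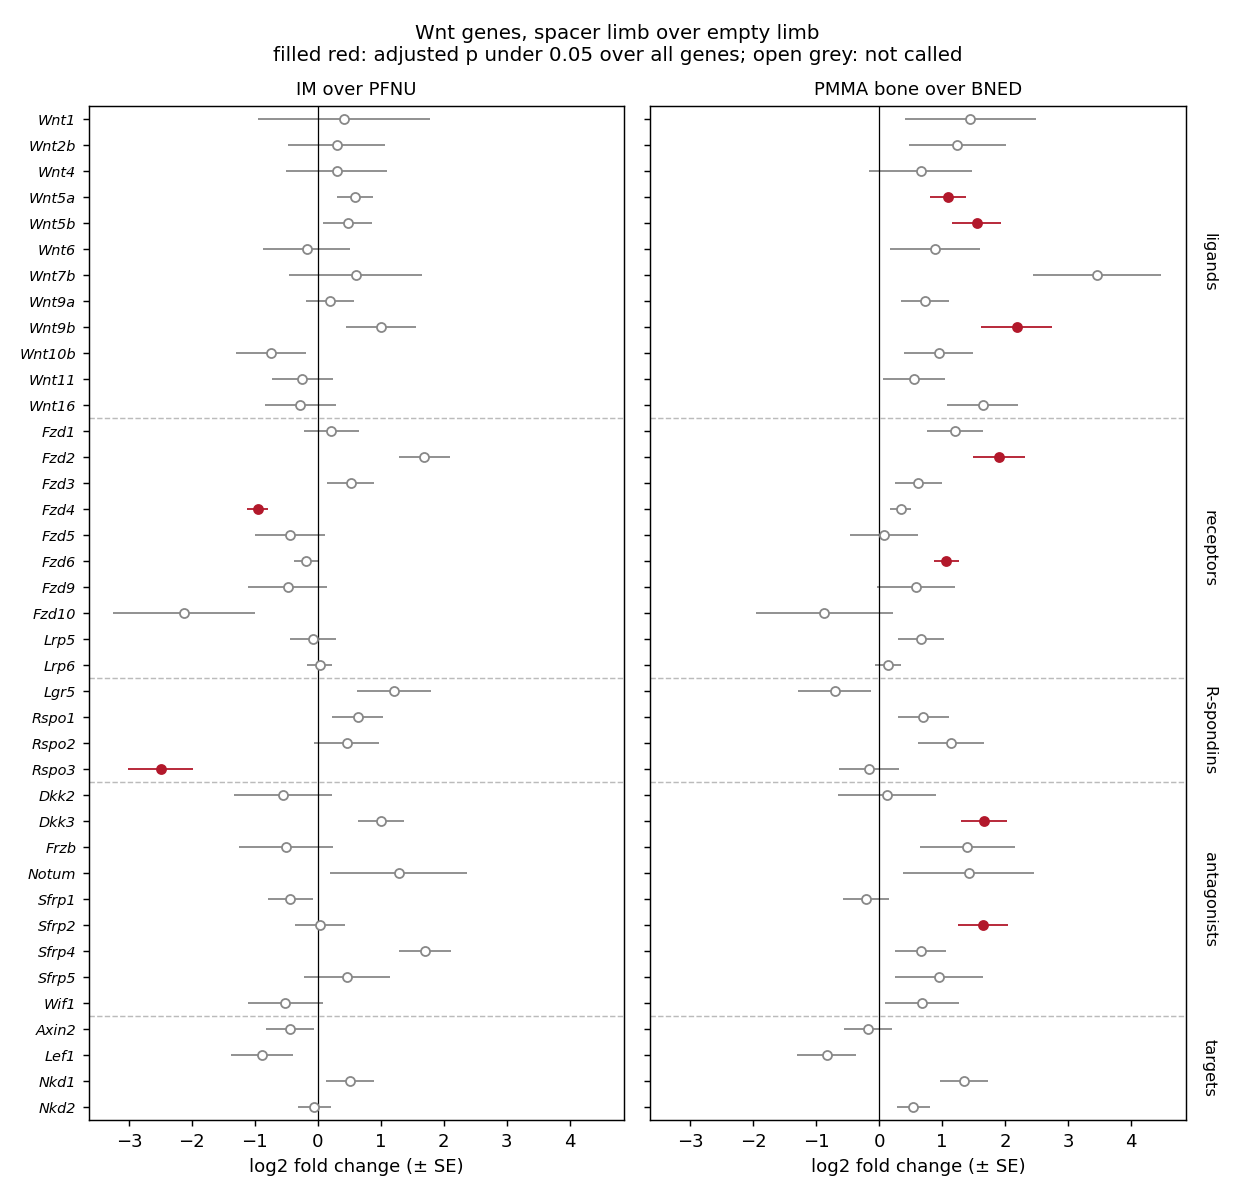
Log2 fold changes (points, with bars of 1 SE) of the 39 tested Wnt genes, by role, for IM over PFNU and for PMMA bone over BNED. Filled points are genes called at an adjusted p under 0.05: 2 lie below 0 for IM over PFNU and 7 lie above 0 for PMMA bone over BNED.

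Tissue differences were more frequent. In IM against PMMA bone, 6 members rose and 9 fell, a share of 38.5%, where 22.2% of all genes were called (11.3% higher and 11% lower). In PFNU against BNED, 10 rose and 5 fell, again 38.5%, where 30.2% of all genes were called (15% higher and 15.2% lower). A set of 10 genes was called the same way in both limbs, which is 66.7% of each list. Of these, Fzd2, Lrp6, Rspo1, Sfrp2 and Sfrp4 were higher in defect tissue, and Fzd5, Lef1, Nkd2, Wif1 and Wnt5b were lower. Over all genes 1891 were called the same way, which is 66.1% of the IM over PMMA bone list and 48.7% of the PFNU over BNED list. In the same comparisons 4 of 10 osteoblast and osteocyte markers fell in IM and 2 of 10 in PFNU, and all 9 erythroid genes fell in each. Of 10 muscle genes, 8 rose and 1 fell in IM, and 7 rose and 0 fell in PFNU. Of 8 endothelial genes, 4 rose in IM and 7 in PFNU, and of 9 fibrous matrix genes, 2 rose in IM and 3 in PFNU. Of 6 cartilage genes, 0 were called in IM over PMMA bone and 4 fell in PFNU over BNED. The part of these cell type differences in the Wnt results was not tested.

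**Figure D3:**
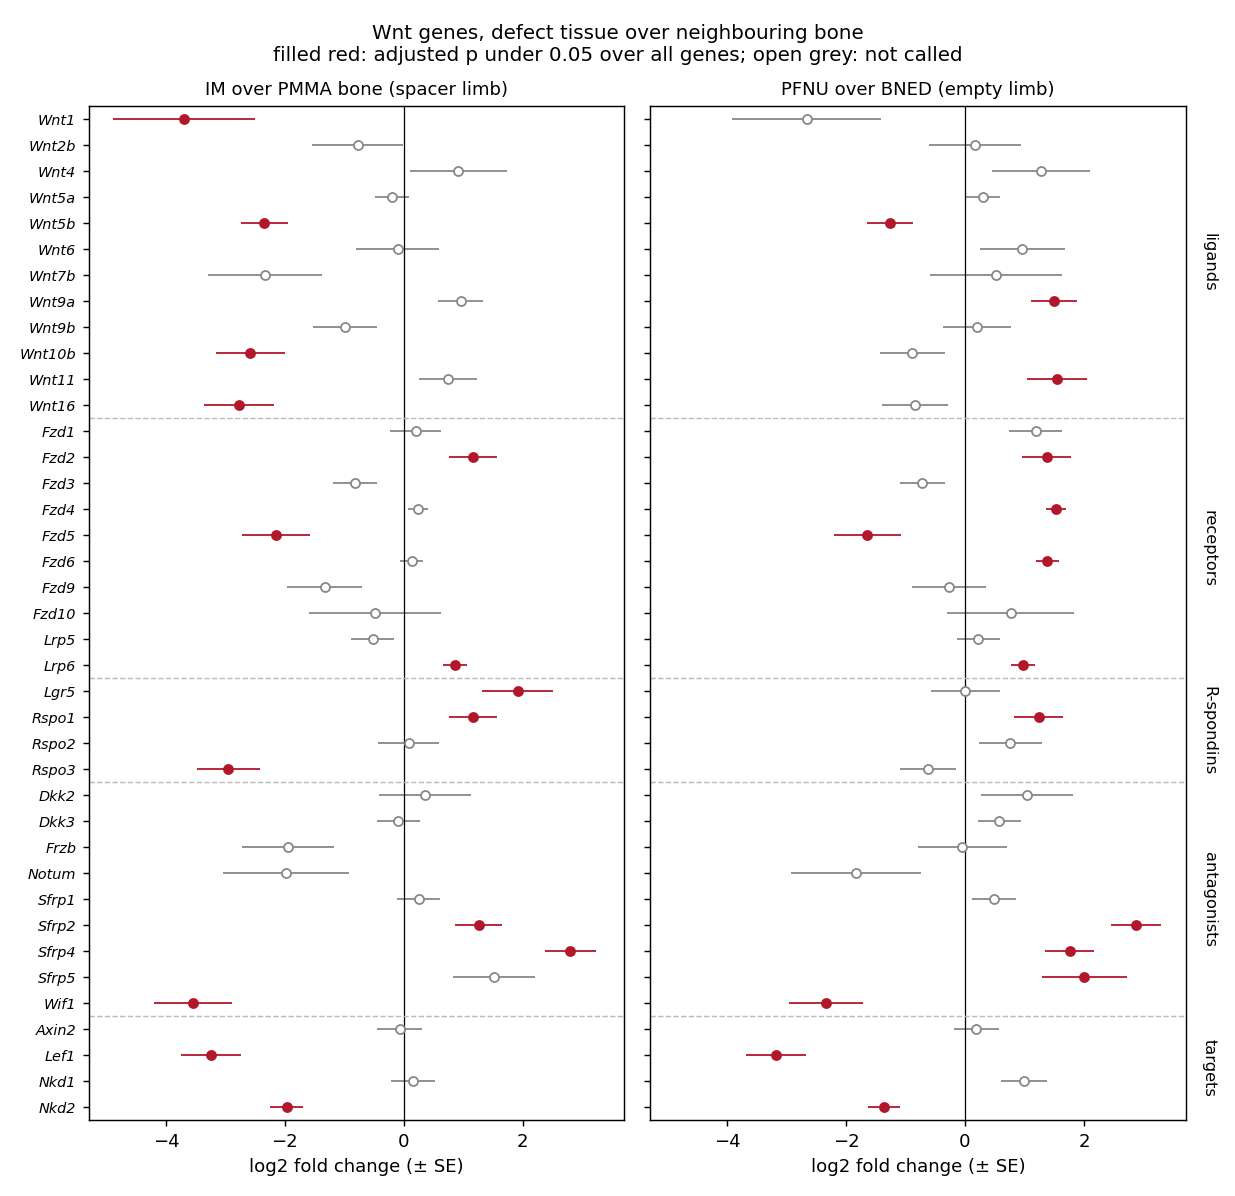
Log2 fold changes (points, with bars of 1 SE) of the 39 tested Wnt genes, by role, for IM over PMMA bone and for PFNU over BNED. Filled points are genes called at an adjusted p under 0.05, 15 in each comparison, of which 10 are called in the same direction in both.

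Among the ligands, Wnt5b, a close relative of Wnt5a, was highest in PMMA bone. Its levels were 9.17, 8.07, 14.8 and 5.47 CPM in IM, 5.17, 3.93, 10.1 and 7.89 CPM in PFNU, 26.8, 47.6, 60.3 and 55.9 CPM in PMMA bone and 10.5, 10.5, 17.8 and 26.2 CPM in BNED. All PMMA bone libraries lay above all BNED libraries, by a small margin between PMMA bone of rat 1 and BNED of rat 4, and both defect tissues lay below their bone. Wnt5b rose in PMMA bone over BNED (log2 fold change 1.55, SE 0.39, adjusted p = 0.0371). It fell in IM over PMMA bone (-2.34, SE 0.40, adjusted p = 0.00184) and in PFNU over BNED (-1.26, SE 0.39, adjusted p = 0.0243). The last call was lost without PFNU of rat 1 (adjusted p = 0.0648) or 2 (0.0758) or BNED of rat 3 (0.0561) or 4 (0.093).

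Wnt5a, the prototype ligand of the β-catenin-independent branch, was also higher in PMMA bone. It measured 13.2, 6.54, 12.8 and 7.70 CPM in IM, 6.94, 4.93, 7.45 and 7.31 CPM in PFNU, 8.97, 11.6, 13.9 and 11.8 CPM in PMMA bone and 3.56, 4.05, 6.41 and 7.63 CPM in BNED. The bone groups did not overlap, and the gene rose in PMMA bone (1.10, SE 0.29, adjusted p = 0.0428). In IM over PFNU its log2 fold change stood at 0.60 (SE 0.29, adjusted p = 0.33), and both tissue comparisons missed the threshold.

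Wnt9b, a ligand needed for kidney tubule formation in mice, stood at low levels. CPM values were 0.998, 0.151, 0.847 and 0.355 in IM, 0.519, 0.273, 0.145 and 0.233 in PFNU, 0.794, 1.27, 1.66 and 0.920 in PMMA bone and 0.277, 0.352, 0.202 and 0.175 in BNED. The lowest PMMA bone library was above the highest BNED library, and Wnt9b rose (2.18, SE 0.56, adjusted p = 0.0399). With rat as a replicate block the adjusted p was 0.0538. The bone calls of Wnt5a, Wnt5b and Wnt9b were each lost without PMMA bone of rat 2, 3 or 4 or BNED of rat 1, 2 or 3 (adjusted p = 0.0684 to 0.155), and that of Wnt9b also without BNED of rat 4 (0.0868).

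Wnt16, Wnt10b and Wnt1, each linked to bone in mice or humans, fell in IM over PMMA bone. Wnt16, which restrains bone resorption in mice, measured 2.36, 1.92, 3.39 and 0.790 CPM in IM, 1.06, 1.23, 1.74 and 6.23 CPM in PFNU, 7.15, 16.6, 15.7 and 18.2 CPM in PMMA bone and 4.41, 2.71, 3.68 and 7.61 CPM in BNED. It fell in IM over PMMA bone (-2.77, SE 0.59, adjusted p = 0.00565) with no overlap. In PMMA bone over BNED its log2 fold change stood at 1.65 (SE 0.56, adjusted p = 0.098), and without PMMA bone of rat 1 it was 1.87 (adjusted p = 0.0359). DESeq2 (1.64, adjusted p = 0.0324), limma-voom (1.77, 0.0248) and the edgeR fit of only the 2 groups (1.66, 0.0282) called Wnt16 higher in PMMA bone. PFNU of rat 4 was far above the other PFNU libraries, and without it Wnt16 was called lower in PFNU than in BNED (-1.77, adjusted p = 0.0189), against -0.84 (0.267) with it.

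Wnt10b, which favours osteoblasts over fat cells in mice, was lowest in IM of rat 2. Its levels were 1.50, 0.318, 4.49 and 1.36 CPM in IM, 3.87, 1.66, 4.88 and 2.40 CPM in PFNU, 7.54, 10.8, 14.2 and 13.2 CPM in PMMA bone and 4.93, 4.04, 7.64 and 7.15 CPM in BNED. IM and PMMA bone did not overlap, and Wnt10b fell in IM (-2.58, SE 0.58, adjusted p = 0.00716). In PMMA bone over BNED it was called by the edgeR fit of only the 2 groups (0.95, adjusted p = 0.0493) and not over all 16 libraries. IM of rat 3, the IM library with the highest share of osteoblast and osteocyte genes (0.316%), also held the highest IM level. The part of that share in the Wnt10b levels was not tested. Without that library the log2 fold change was -3.43. Over all alternative fits, those with a library left out included, it ran from -3.43 to -2.22.

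Wnt1, whose loss causes fragile bone in humans, was detected in 1 of 4 IM libraries. It stood at 0, 0, 0.212 and 0 CPM in IM, 0, 0, 0.0208 and 0.140 CPM in PFNU, 0.864, 0.560, 0.467 and 0.920 CPM in PMMA bone and 0.0865, 0.0704, 0.404 and 0.481 CPM in BNED. The 1 IM library with counts was that of rat 3. Wnt1 fell in IM over PMMA bone (-3.69, SE 1.19, adjusted p = 0.0385), with a fitted size that rests on that library. The call was lost without any 1 of the other IM libraries or of the PMMA bone libraries (adjusted p = 0.0533 to 0.0895), with no filter (0.0509) and with only the 2 groups (0.0773). Without IM of rat 3 no IM library held a count, and the fitted size then depends on the prior count. In PFNU over BNED the log2 fold change was -2.66 (SE 1.25, adjusted p = 0.117), and without PFNU of rat 4 it was -4.82 (0.0457).

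Wnt9a and Wnt11 rose in PFNU over BNED. Wnt9a, which takes part in joint formation in mice, measured 12.6, 4.20, 17.8 and 17.2 CPM in IM, 10.1, 13.8, 7.58 and 13.7 CPM in PFNU, 5.39, 7.66, 7.94 and 5.56 CPM in PMMA bone and 4.25, 5.75, 3.66 and 2.36 CPM in BNED. PFNU lay above BNED without overlap (1.49, SE 0.38, adjusted p = 0.00988). In IM over PMMA bone the log2 fold change was 0.96 (SE 0.38, adjusted p = 0.0791), and without IM of rat 2, the lowest, it was 1.25 (0.0109). Wnt11, a ligand of the β-catenin-independent branch, had 1.54, 1.71, 3.45 and 5.84 CPM in IM, 3.68, 4.75, 1.56 and 4.85 CPM in PFNU, 0.794, 1.88, 2.15 and 2.63 CPM in PMMA bone and 0.951, 1.50, 0.829 and 1.79 CPM in BNED. It rose in PFNU over BNED (1.55, SE 0.50, adjusted p = 0.0299) although PFNU of rat 3 lay inside the BNED range. That call was lost without PFNU of rat 1, 2 or 4 or BNED of rat 1 or 3 (adjusted p = 0.0511 to 0.0866).

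The remaining tested ligands were Wnt2b, Wnt4, Wnt6 and Wnt7b, none of which was called by edgeR over all 16 libraries. Wnt7b, which promotes osteoblast maturation in mice, measured 0, 0, 0.173 and 0.197 CPM in IM, 0.0865, 0.0195, 0.0415 and 0.0934 CPM in PFNU, 0.677, 0.492, 0.392 and 0.325 CPM in PMMA bone and 0.0173, 0.106, 0.0202 and 0 CPM in BNED. The bone groups did not overlap, with a log2 fold change at 3.46 (SE 1.02, adjusted p = 0.0616). Wnt7b was called there by DESeq2 (3.56, adjusted p = 0.0159), limma-voom (3.73, 0.0269), the edgeR fit of only the 2 groups (3.41, 0.0257) and edgeR without PMMA bone of rat 1 (3.25, 0.0492), and limma-voom also called it in IM over PMMA bone (-3.47, 0.0156). All 12 tested ligands had a log2 fold change above 0 in PMMA bone over BNED, with a median of 1.17, and 3 passed the test. Wnt4 spread widely within IM, with 0.211, 0.837, 4.39 and 10.3 CPM. The ligands without a call had log2 fold changes in PMMA bone over BNED of 1.24 for Wnt2b, 0.67 for Wnt4 and 0.88 for Wnt6.

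**Figure D4:**
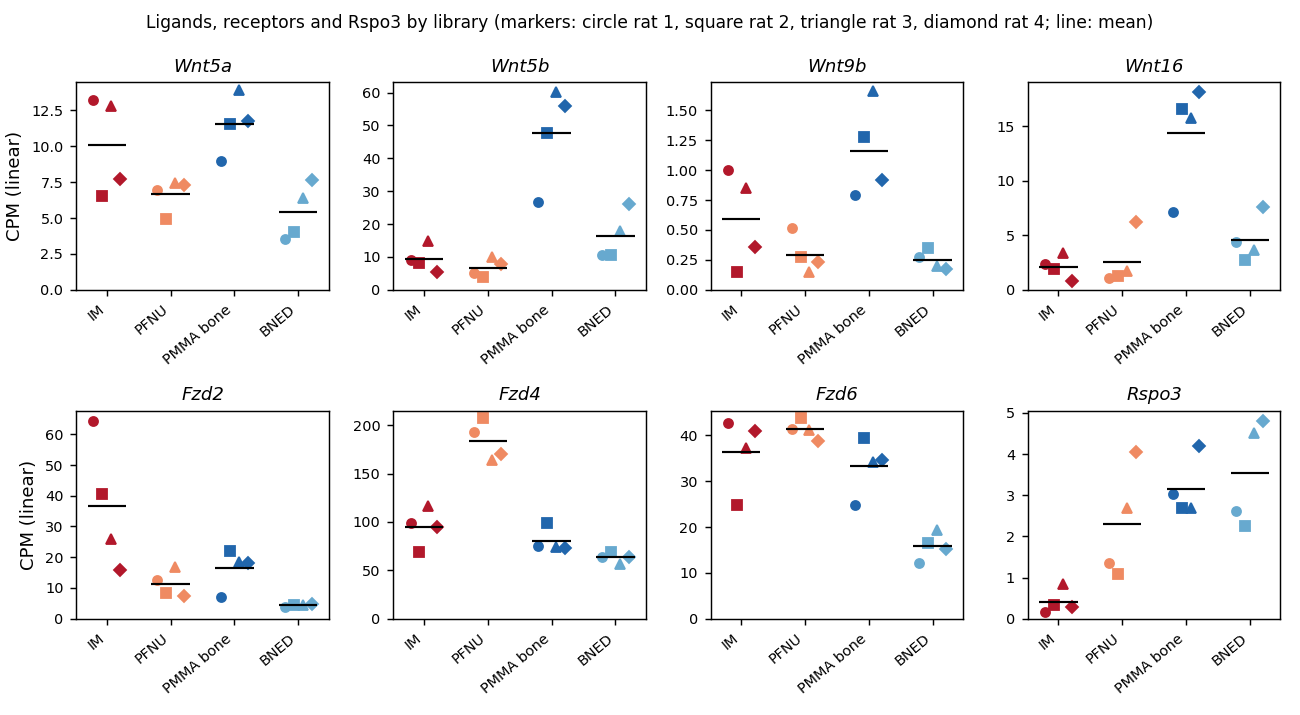
CPM (linear axis) in each of the 16 libraries for chosen Wnt ligands, receptors and R-spondin genes, by group, with a symbol for each rat and a line at the group mean. Wnt5b reached 26.8 to 60.3 CPM in PMMA bone against 10.5 to 26.2 CPM in BNED, and Fzd4 reached 69.0 to 117 CPM in IM against 164 to 207 CPM in PFNU.

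Fzd4, a Frizzled that also binds norrin and is required for retinal vessel growth in humans and mice, was lower in IM than in PFNU. It measured 99.2, 69.0, 117 and 94.9 CPM in IM, 193, 207, 164 and 170.2 CPM in PFNU, 75.3, 98.5, 74.5 and 72.7 CPM in PMMA bone and 63.3, 69.3, 57.0 and 63.7 CPM in BNED. PFNU stood above every library of the other groups. Fzd4 fell in IM over PFNU (-0.95, SE 0.17, adjusted p = 0.022) and rose in PFNU over BNED (1.54, SE 0.17, adjusted p = 8.85e-05). The IM call was lost with rat as a replicate block (adjusted p = 0.0507), with limma-voom (0.0517), with only the 2 groups (0.197), without PFNU of rat 2 (0.0702) and without PFNU of rat 4 (0.0633), and the PFNU over BNED call held without each library in turn. Of 8 endothelial genes none was called in IM over PFNU, and 7 rose in PFNU over BNED. Endothelial genes took 0.0778 to 0.142% of counts in IM, 0.0824 to 0.122% in PFNU, 0.0578 to 0.0929% in PMMA bone and 0.0507 to 0.0612% in BNED, and their part in the Fzd4 result was not tested.

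Fzd2, a receptor through which Wnt5a can act, was low in BNED. It read 64.5, 40.6, 25.9 and 15.9 CPM in IM, 12.6, 8.49, 16.7 and 7.52 CPM in PFNU, 6.94, 22.0, 18.4 and 18.1 CPM in PMMA bone and 3.79, 4.40, 4.53 and 4.79 CPM in BNED. No library of another group came down to the BNED range. Fzd2 rose in PMMA bone over BNED (1.90, SE 0.41, adjusted p = 0.0263) and in PFNU over BNED (1.37, SE 0.41, adjusted p = 0.0204). In IM over PMMA bone the call stood at the threshold (1.17, SE 0.40, adjusted p = 0.0492) and was lost with the replicate block (0.0932), no filter (0.0529), the stricter filter (0.0502), limma-voom (0.0704) and only the 2 groups (0.142). It was also lost without IM of rat 1, the highest, where the log2 fold change was 0.77 (adjusted p = 0.151), and without IM of rat 2 or PMMA bone of rat 1, 3 or 4 (0.0808 to 0.117). In IM over PFNU Fzd2 was higher in 4 of 4 rats (1.69, SE 0.41) at an adjusted p of 0.067, and without IM of rat 4 the log2 fold change was 1.97 (0.0267). DESeq2 called it there too (1.70, adjusted p = 0.00434).

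Fzd6, which orients hair follicles in mice, was likewise lowest in BNED. Levels were 42.8, 24.7, 37.2 and 41.0 CPM in IM, 41.4, 43.7, 41.3 and 38.8 CPM in PFNU, 24.7, 39.5, 34.2 and 34.7 CPM in PMMA bone and 12.2, 16.5, 19.4 and 15.3 CPM in BNED. The gene rose in PMMA bone over BNED (1.07, SE 0.19, adjusted p = 0.0174) and in PFNU over BNED (1.38, SE 0.19, adjusted p = 0.000269). IM and PFNU overlapped. The bone calls of Fzd2 and Fzd6 were lost without PMMA bone of rat 2, 3 or 4 or BNED of rat 1 or 3, and that of Fzd2 also without BNED of rat 2 (adjusted p = 0.052 to 0.111). The PFNU over BNED call of Fzd2 was lost without PFNU of rat 3 (0.0569) or BNED of rat 1 (0.0579) and with limma-voom (0.0706).

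Fzd5, which is needed for yolk sac vessels in mice, was lower in defect tissue than in bone. It measured 1.38, 0.134, 2.25 and 0.750 CPM in IM, 1.75, 0.837, 2.35 and 1.17 CPM in PFNU, 5.11, 3.28, 7.08 and 4.60 CPM in PMMA bone and 5.76, 4.22, 5.28 and 3.78 CPM in BNED. Neither pair overlapped, and Fzd5 fell in IM over PMMA bone (-2.15, SE 0.57, adjusted p = 0.0161) and in PFNU over BNED (-1.64, SE 0.56, adjusted p = 0.038). The call in the empty limb was lost without PFNU of rat 1, 2 or 4 or BNED of rat 1, 3 or 4 (adjusted p = 0.0544 to 0.105), and the call in the spacer limb with only the 2 groups (0.0816).

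Lrp6, a co-receptor of the canonical branch, was higher in defect tissue than in bone. It measured 49.9, 36.4, 59.6 and 60.0 CPM in IM, 54.8, 42.7, 65.2 and 38.7 CPM in PFNU, 20.8, 33.6, 31.2 and 27.2 CPM in PMMA bone and 23.6, 27.6, 25.9 and 25.2 CPM in BNED. Every defect library was above every bone library, and Lrp6 rose in IM over PMMA bone (0.87, SE 0.20, adjusted p = 0.00886) and in PFNU over BNED (0.98, SE 0.20, adjusted p = 0.00268). With only the 2 groups the IM call was lost (0.054). Lrp5, whose variants raise or lower bone mass in humans, measured 64.7, 15.3, 103 and 62.7 CPM in IM, 62.0, 56.6, 73.6 and 67.1 CPM in PFNU, 69.6, 94.9, 96.1 and 92.1 CPM in PMMA bone and 50.6, 58.7, 67.1 and 45.9 CPM in BNED. The bone groups did not overlap, with a log2 fold change at 0.67 (SE 0.36, adjusted p = 0.273), and edgeR over all 16 libraries called Lrp5 in none of the comparisons. The fit of only the 2 groups called it in bone (0.66, adjusted p = 0.0347).

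Fzd1, Fzd3, Fzd9 and Fzd10 were not called by edgeR over all 16 libraries either. Fzd1 reached 36.9, 59.4, 67.6 and 54.4 CPM in PMMA bone against 18.6, 20.7, 25.4 and 30.0 CPM in BNED (1.21, SE 0.44, adjusted p = 0.119), with no overlap. In PFNU over BNED it also did not overlap (1.19, SE 0.44, adjusted p = 0.0533). Fzd1 was called by the fit of only the 2 groups in PMMA bone over BNED (1.21, adjusted p = 0.0216) and in PFNU over BNED (1.16, 0.00708), and by DESeq2 in PFNU over BNED (1.19, 0.0275). Fzd3 was at -0.72 (SE 0.37, adjusted p = 0.155) in PFNU over BNED, and without PFNU of rat 3 at -1.12 (0.0335). Fzd9 lay at 0.803 to 15.6 CPM over the 16 libraries and Fzd10 at 0.0219 to 1.77 CPM. Of the 10 receptors, 9 had a log2 fold change above 0 in PMMA bone over BNED.

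R-spondins amplify Wnt signals by binding Lgr receptors and removing the ligases Rnf43 and Znrf3, which clear Frizzled from the cell surface. Rspo3 was scarce in IM. It measured 0.173, 0.335, 0.847 and 0.276 CPM in IM, 1.36, 1.09, 2.70 and 4.06 CPM in PFNU, 3.04, 2.70, 2.70 and 4.20 CPM in PMMA bone and 2.61, 2.25, 4.51 and 4.81 CPM in BNED. The highest IM library, again rat 3, was below the lowest library of each other group. Rspo3 fell in IM over PFNU (-2.49, SE 0.52, adjusted p = 0.0351) and in IM over PMMA bone (-2.95, SE 0.52, adjusted p = 0.00219). The call against PFNU was lost without IM of rat 1 (adjusted p = 0.0804) or 2 (0.0972) or PFNU of rat 3 (0.0819) or 4 (0.136), with limma-voom (0.0858) and with only the 2 groups (0.239), and the call against PMMA bone held without each library in turn. Without IM of rat 3 the log2 fold changes were -3.12 against PFNU and -3.58 against PMMA bone. Over all alternative fits they ran from -3.12 to -2.07 against PFNU and from -3.58 to -2.71 against PMMA bone.

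Rspo1 was higher in defect tissue. It stood at 22.6, 8.97, 8.11 and 4.58 CPM in IM, 7.31, 6.23, 10.1 and 4.88 CPM in PFNU, 3.41, 6.26, 3.86 and 6.17 CPM in PMMA bone and 3.03, 3.73, 2.33 and 3.00 CPM in BNED. PFNU and BNED did not overlap, and Rspo1 rose in PFNU over BNED (1.24, SE 0.41, adjusted p = 0.0321). That call was lost without any 1 of the PFNU libraries of rats 1 to 3 or the BNED libraries of rats 1, 3 and 4 (adjusted p = 0.0512 to 0.0889) and with limma-voom (0.059). In IM over PMMA bone the call stood at the threshold (1.17, SE 0.40, adjusted p = 0.0495) and was lost with the replicate block (0.108), no filter (0.0541), the stricter filter (0.0509), limma-voom (0.102) and only the 2 groups (0.15). Without IM of rat 1, the highest, the log2 fold change there was 0.56 (adjusted p = 0.213), and without IM of rat 2 or any 1 PMMA bone library the adjusted p was 0.0522 to 0.123.

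Lgr5, an R-spondin receptor known from stem cells of the gut, measured 3.15, 3.33, 2.97 and 0.632 CPM in IM, 0.995, 0.526, 2.12 and 0.724 CPM in PFNU, 0.304, 0.883, 0.829 and 0.637 CPM in PMMA bone and 1.54, 1.31, 1.15 and 0.328 CPM in BNED. All IM libraries but that of rat 4 lay above every library of the other groups. Lgr5 rose in IM over PMMA bone (1.92, SE 0.60, adjusted p = 0.0328). The call was lost without IM of rat 2 or 3 or PMMA bone of rat 1, 3 or 4 (adjusted p = 0.0581 to 0.087), with limma-voom (0.0687) and with only the 2 groups (0.0709). Rspo2 was called in no comparison, and its levels did not overlap in bone, with 1.40, 3.17, 1.34 and 1.39 CPM in PMMA bone against 0.917, 0.598, 0.465 and 1.33 CPM in BNED.

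Sfrp2, which binds Wnt proteins outside the cell, was lowest in BNED. It measured 153, 217, 295 and 158 CPM in IM, 322, 185, 184 and 111 CPM in PFNU, 33.9, 135, 66.9 and 107 CPM in PMMA bone and 27.7, 38.5, 19.7 and 23.0 CPM in BNED. PMMA bone of rat 1 fell within the BNED range and the other 3 libraries lay above it. Sfrp2 rose in PMMA bone over BNED (1.65, SE 0.40, adjusted p = 0.0345), a call lost with the replicate block (0.0509). It also rose in IM over PMMA bone (1.26, SE 0.40, adjusted p = 0.0346) and in PFNU over BNED (2.88, SE 0.42, adjusted p = 0.000335). The call in IM over PMMA bone was lost without IM of rat 2 or 3 or PMMA bone of rat 1, 3 or 4 (adjusted p = 0.0523 to 0.0913) or with only the 2 groups (0.0897), and that in PFNU over BNED held without each library in turn.

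Dkk3, a Dickkopf relative that does not block Lrp5 and Lrp6 as Dkk1 does, measured 306, 292, 189 and 89.2 CPM in IM, 136, 70.4, 154 and 77.8 CPM in PFNU, 143, 337, 221 and 233 CPM in PMMA bone and 57.7, 71.2, 79.4 and 86.3 CPM in BNED. The bone groups did not overlap, and Dkk3 rose in PMMA bone (1.67, SE 0.37, adjusted p = 0.0283). In IM over PFNU it was higher in 4 of 4 rats (1.00, SE 0.36) but the adjusted p was 0.196. The bone calls of Sfrp2 and Dkk3 were lost without PMMA bone of rat 2, 3 or 4 or BNED of rat 1 or 3, that of Sfrp2 also without BNED of rat 4, and that of Dkk3 also without BNED of rat 2 (adjusted p = 0.0589 to 0.13).

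Sfrp4, loss of which thins cortical bone in humans, was higher in defect tissue. Values were 228, 934, 603 and 462 CPM in IM, 329, 118, 115 and 118 CPM in PFNU, 74.7, 91.3, 101 and 52.1 CPM in PMMA bone and 56.2, 43.3, 43.6 and 58.2 CPM in BNED. Both defect tissues lay above their bone without overlap. Sfrp4 rose in IM over PMMA bone (2.80, SE 0.43, adjusted p = 0.00091) and in PFNU over BNED (1.76, SE 0.41, adjusted p = 0.0059), and both calls held without each library in turn. In IM over PFNU rat 1 went against the other 3 rats: the log2 fold change was 1.71 (SE 0.41, adjusted p = 0.067), and it was 2.25 (0.012) without PFNU of rat 1 and 2.00 (0.0443) without IM of rat 1. DESeq2 called it there (1.71, adjusted p = 0.0034).

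Sfrp5, a further secreted Frizzled-related protein, was higher in PFNU than in BNED. It measured 5.91, 2.71, 3.64 and 3.51 CPM in IM, 4.52, 1.60, 2.53 and 2.78 CPM in PFNU, 2.69, 0.968, 0.422 and 1.46 CPM in PMMA bone and 0.0692, 0.422, 0.526 and 1.86 CPM in BNED. Sfrp5 rose in PFNU over BNED (2.00, SE 0.71, adjusted p = 0.0454) with PFNU of rat 2 below BNED of rat 4. The call was lost without any 1 of the PFNU libraries or of the BNED libraries of rats 1 to 3 (adjusted p = 0.0524 to 0.111) and with only the 2 groups (0.0604). Without BNED of rat 4, the highest, Sfrp5 was at 3.07 (0.00718). All IM libraries also lay above all PMMA bone libraries, by a small margin between IM of rat 2 and PMMA bone of rat 1. That difference was not called by edgeR over all 16 libraries, and limma-voom called it (1.80, adjusted p = 0.0404).

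Wif1, a secreted protein that binds and holds Wnt ligands, was higher in bone. It stood at 1.96, 3.38, 22.6 and 12.8 CPM in IM, 5.82, 10.4, 19.2 and 22.9 CPM in PFNU, 100.0, 98.2, 116 and 161 CPM in PMMA bone and 63.6, 43.4, 94.9 and 93.9 CPM in BNED. All 8 bone libraries were above all 8 defect libraries. Wif1 fell in IM over PMMA bone (-3.54, SE 0.65, adjusted p = 0.00268) and in PFNU over BNED (-2.34, SE 0.62, adjusted p = 0.0114), and both calls held without each library in turn. Without IM of rat 3, the highest, the first was -4.30, and over all alternative fits it ran from -4.30 to -3.23. PMMA bone also lay above BNED without overlap, with a log2 fold change at 0.69 (SE 0.59, adjusted p = 0.497).

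The other tested antagonists, Sfrp1, Dkk2, Frzb and Notum, were not called by edgeR over all 16 libraries. Sfrp1 lay at 61.2 to 232 CPM over the 16 libraries. Frzb, a secreted Frizzled-related protein known from cartilage, had 16.1, 6.23, 11.7 and 7.44 CPM in IM against 19.8, 24.6, 37.7 and 77.4 CPM in PMMA bone, without overlap (-1.94, SE 0.77, adjusted p = 0.0797). DESeq2 (-1.94, 0.0258) and the fit of only the 2 groups (-1.94, 0.0433) called Frzb there. The 6 cartilage markers in the table took 0.0327 to 0.141% of counts in IM and 0.124 to 1.49% in PMMA bone, and their part in the Frzb levels was not tested. Notum, an enzyme that strips the lipid from Wnt proteins, ranged from 0 to 5.26 CPM. Notum was called by limma-voom in IM over PMMA bone (-4.18, adjusted p = 0.0264) and by the fit of only the 2 groups in PFNU over BNED (-1.86, 0.0321). Dkk2 in PFNU over BNED was at 1.04 (SE 0.78, adjusted p = 0.327), and without BNED of rat 2, which held 15.2 CPM against 0.897 to 4.01 CPM in the other BNED libraries, at 2.28 (0.0350).

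**Figure D5:**
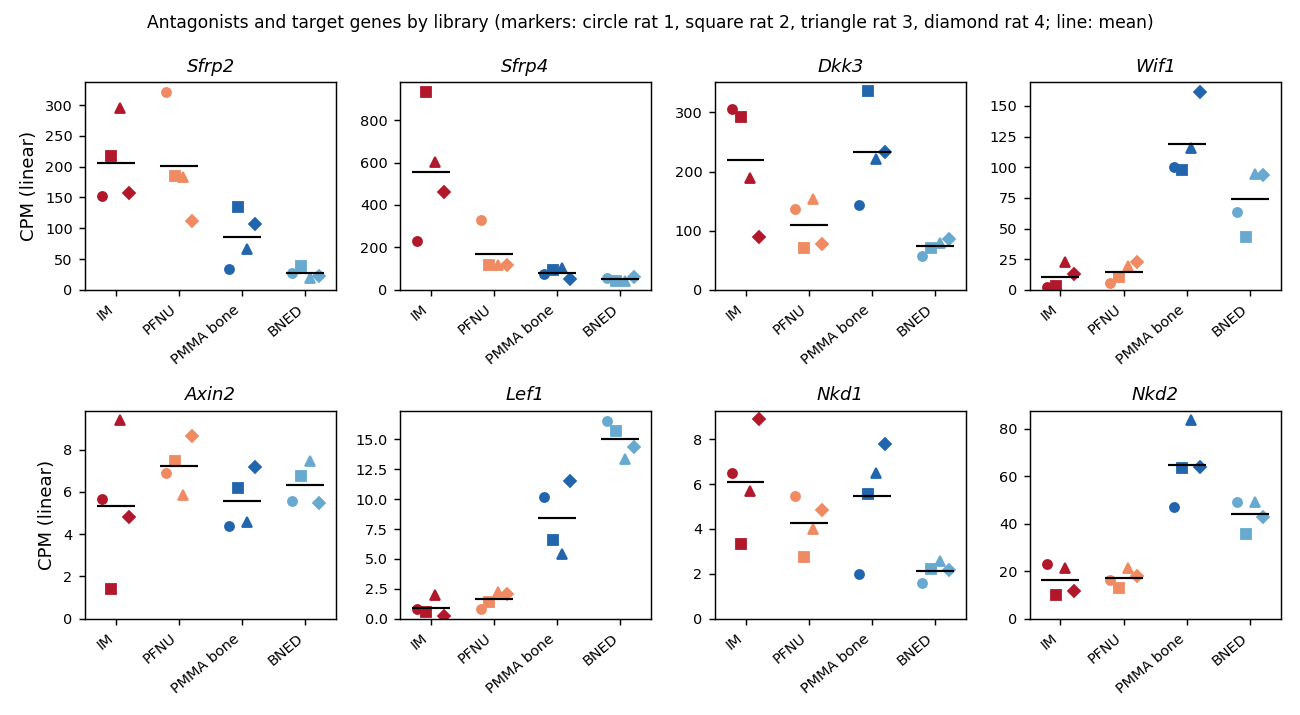
CPM (linear axis) in each of the 16 libraries for 4 genes of the antagonist class (Sfrp2, Sfrp4, Dkk3 and Wif1) and the 4 target genes (Axin2, Lef1, Nkd1 and Nkd2), by group, with a symbol for each rat and a line at the group mean. Wif1 lay at 98.2 to 161 CPM in PMMA bone and 43.4 to 94.9 CPM in BNED, against at most 22.9 CPM in defect tissue, while Axin2 overlapped between all groups.

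Of the 4 target genes, edgeR over all 16 libraries called none between spacer and empty limb (DESeq2 called Nkd1 in bone), and Lef1 and Nkd2 fell in the defect tissue of both limbs. Axin2, a scaffold of the complex that degrades β-catenin and a feedback target, measured 5.64, 1.42, 9.42 and 4.80 CPM in IM, 6.88, 7.48, 5.86 and 8.66 CPM in PFNU, 4.39, 6.18, 4.57 and 7.19 CPM in PMMA bone and 5.57, 6.76, 7.44 and 5.49 CPM in BNED. All groups overlapped. Its log2 fold change stood at -0.44 (SE 0.38, adjusted p = 0.65) in IM over PFNU and -0.18 (SE 0.38, adjusted p = 0.81) in PMMA bone over BNED. In IM over PMMA bone it was -0.07 (SE 0.38, adjusted p = 0.911), and in PFNU over BNED 0.19 (SE 0.38, adjusted p = 0.729).

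Lef1, a partner of β-catenin on DNA that is also expressed in precursor lymphocytes, was high in bone. It measured 0.844, 0.519, 1.96 and 0.237 CPM in IM, 0.822, 1.42, 2.24 and 2.10 CPM in PFNU, 10.2, 6.60, 5.44 and 11.5 CPM in PMMA bone and 16.5, 15.7, 13.3 and 14.4 CPM in BNED. No defect library reached a bone library. Lef1 fell in IM over PMMA bone (-3.24, SE 0.51, adjusted p = 0.00106) and in PFNU over BNED (-3.18, SE 0.51, adjusted p = 0.000508), and both calls held without each library in turn. Without IM of rat 3 the first was -3.98, and over all alternative fits it ran from -3.98 to -2.93. Lef1 was the 1 member with all PMMA bone libraries below all BNED libraries (-0.83, SE 0.46, adjusted p = 0.286), in the direction opposite to the 7 called genes.

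Nkd2 and Nkd1 encode proteins that bind Dishevelled and dampen the pathway. Nkd2 measured 22.9, 9.77, 21.5 and 11.7 CPM in IM, 16.5, 12.9, 21.2 and 18.0 CPM in PFNU, 47.1, 63.5, 83.7 and 64.0 CPM in PMMA bone and 49.3, 35.5, 49.2 and 42.8 CPM in BNED. It fell in IM over PMMA bone (-1.97, SE 0.27, adjusted p = 0.000447) and in PFNU over BNED (-1.37, SE 0.27, adjusted p = 0.00191) with no overlap, and both calls held without each library in turn. Nkd1 did not share that pattern, with 6.49, 3.31, 5.70 and 8.88 CPM in IM, 5.47, 2.77, 4.01 and 4.83 CPM in PFNU, 1.98, 5.55, 6.51 and 7.80 CPM in PMMA bone and 1.59, 2.22, 2.59 and 2.19 CPM in BNED. PMMA bone of rat 1 lay within the BNED range and the other 3 libraries above it. Nkd1 in PMMA bone over BNED was at 1.35 (SE 0.39, adjusted p = 0.0565), and without PMMA bone of rat 1 at 1.62 (0.00412). DESeq2 called Nkd1 higher in PMMA bone (1.34, adjusted p = 0.01). In PFNU over BNED it was at 0.99 (SE 0.38, adjusted p = 0.0614) without overlap, and DESeq2 (1.00, 0.0329) and the fit of only the 2 groups (0.95, 0.0188) called it.

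A test of whether the spacer difference in the defect differed from that in bone called 0 of 12857 genes with edgeR, and 1149 genes (8.94%), 7 of the 39 members among them, had an unadjusted p under 0.05. DESeq2 called 129 genes, among them Fzd4, Fzd6 and Rspo3, and limma-voom called none. The edgeR interaction was -1.29 (SE 0.24, adjusted p = 0.144) for Fzd4, -1.25 (SE 0.27, adjusted p = 0.222) for Fzd6 and -2.33 (SE 0.69, adjusted p = 0.308) for Rspo3. Without PMMA bone of rat 1, edgeR called 199 genes, including Fzd4 (-1.32, adjusted p = 0.0303) and Fzd6 (-1.37, adjusted p = 0.0315). Interaction values were below 0 for 37 of the 39 members, the exceptions being Lgr5 and Sfrp4, and for 6300 of 12857 genes. Hence edgeR over all 16 libraries did not show the larger number of calls in bone as a difference between sites for any 1 member.

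Other genes of the pathway were read from a second list of 54 symbols, of which 47 were in the table and 44 were tested. In IM over PFNU edgeR called 0 of the 44 (6 had an unadjusted p under 0.05, where 15.5% of all genes did, and DESeq2 called 1 and limma-voom none). In PMMA bone over BNED 3 rose and none fell, a share of 6.82% where 4.91% of all genes were called. These were Ccnd1, a cell cycle gene and β-catenin target, with 96.9 ± 23.8 CPM in PMMA bone and 45.2 ± 13.7 CPM in BNED (SD, n = 4 each, log2 fold change 1.10, SE 0.29, adjusted p = 0.0431), Porcn, which adds the lipid to Wnt proteins (1.07, SE 0.21, adjusted p = 0.0228), and Vangl1, a planar polarity protein (1.06, SE 0.26, adjusted p = 0.0364). Each was lost in the fits that left out PMMA bone of rat 2, 3 or 4 or BNED of rat 1 or 3, Ccnd1 and Vangl1 also without BNED of rat 2, and Vangl1 also without BNED of rat 4 (adjusted p = 0.0603 to 0.155). With the replicate block the adjusted p of Ccnd1 was 0.0567.

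In IM over PMMA bone 3 genes of that list rose and 5 fell, a share of 18.2% where 22.2% of all genes were called. The 3 that rose were Ror1, a receptor for Wnt5a (0.96, SE 0.26, adjusted p = 0.019), Wls, the carrier that brings Wnt proteins to the surface (0.66, SE 0.20, adjusted p = 0.0325), and Csnk1a1, a kinase of β-catenin (0.57, SE 0.16, adjusted p = 0.0212). The largest falls were in Lrp4, which anchors sclerostin (-2.27, SE 0.49, adjusted p = 0.00592), the corepressor Tle2 (-2.02, SE 0.38, adjusted p = 0.00308) and the factor Tcf7l2 (-0.93, SE 0.23, adjusted p = 0.012). The 3 falls held without each library in turn, and the 3 rises did not. Lrp4 was at -3.12 without IM of rat 3 and ran from -3.12 to -1.99 over all alternative fits. The rises were also lost with only the 2 groups (adjusted p = 0.0647 to 0.137). Ror1 was lost without PMMA bone of rat 1 or 4, Wls without IM of rat 1 or 2 or PMMA bone of rat 1, 2 or 3, and Csnk1a1 without IM of rat 4 or PMMA bone of rat 3 or 4 (adjusted p = 0.0511 to 0.0911). In PFNU over BNED 8 rose and 3 fell, a share of 25% where 30.2% of all genes were called. The rises were led by the corepressor Tle1 (1.94, SE 0.44, adjusted p = 0.00504), Ccnd1 (1.15, SE 0.29, adjusted p = 0.00898) and the cell surface proteoglycan Gpc4 (1.12, SE 0.26, adjusted p = 0.00546). Rnf43 (-1.99, SE 0.59, adjusted p = 0.0196), Vangl2 (-1.66, SE 0.58, adjusted p = 0.0425) and Lrp4 (-1.34, SE 0.47, adjusted p = 0.044) fell. Vangl2 was lost without any 1 library, Lrp4 without PFNU of rat 1, 2 or 4 or BNED of rat 1, 3 or 4, and Rnf43 without PFNU of rat 4 (adjusted p = 0.0535 to 0.122).

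Sost, the sclerostin gene of osteocytes, was called in no comparison. It measured 0.134, 0.452, 9.71 and 0.434 CPM in IM, 0.562, 1.87, 8.04 and 2.52 CPM in PFNU, 32.6, 12.7, 13.6 and 22.1 CPM in PMMA bone and 7.14, 5.35, 23.0 and 20.1 CPM in BNED. The defect libraries of rat 3 stood above the other defect libraries, as they did for the summed osteoblast and osteocyte share (0.316% in IM and 0.266% in PFNU). The log2 fold change of Sost was -2.92 (SE 1.09, adjusted p = 0.0652) in IM over PMMA bone and 0.54 (SE 1.01, adjusted p = 0.774) in PMMA bone over BNED.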

How the data were processed

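Poly-A RNA of 16 tissue samples (4 rats, 4 tissues each) was sequenced from both ends with a stranded TruSeq kit, per the labels' protocols. The deposited values are whole-number counts per gene symbol without normalisation, which start where the submitters' work ended. Build rn5 and the tools DESeq2, Bowtie2 2.2.1, TopHat2 2.0.13 and FastQC 0.11.3 stand in the submitters' processing notes. The counter, its strand setting and the annotation are not given in the sources used here, so reads of overlapping antisense genes cannot be told apart. No rn5 coordinates are given, and the promoters are RefSeq sequences of GRCr8.

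Counts were fitted with edgeR 4.0.16 (R 4.3.3): TMM factors, filterByExpr, 4 group means over 16 libraries, and the quasi-likelihood F-test with Benjamini-Hochberg adjustment over 12857 genes in each of 5 comparisons, including the interaction of spacer and site. Every adjusted p comes from it unless another tool is named. SE is the size of the log2 fold change divided by the square root of F. The alternatives were RLE factors, no filter, a filter of at least 1 CPM in 4 libraries, DESeq2 1.42.0, limma-voom (limma 3.58.1), only the 2 groups compared, rat as a replicate block, and leaving out each library in turn. The edgeR steps were tested on simulated counts.

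Groups and rat numbers come from each sample's label. The same rat gave a sample to each group, so rat numbers pair the samples. Over 24 same-rat pairs the deviations from the group means correlated at r = -0.345 to 0.496 (median 0.0683), over 0.1 in 10. No 2 libraries of a group agreed within sampling noise (lowest chi-square per degree of freedom 80.3), and all were kept. IM libraries agreed least, with chi-square per degree of freedom of 627 to 2704 (r = 0.907 to 0.963 on log2 CPM). It was 80.3 to 704 in PFNU, 120 to 709 in PMMA bone and 124 to 640 in BNED. Reads are PCR copies without molecular identifiers, so depth covers counting error only. The p-values of the main fit rest on the spread between these 4 rats within groups, pooled over all 4 groups. They do not use the pairing of samples by rat.

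The members, the second pathway list and the markers were chosen with earlier results of these data known. Every member is named. Members called in any comparison and Axin2, Lrp5 and Sost are given in all 16 libraries, other members by ranges or their largest differences, and of the second list up to 3 called genes in each direction and comparison. Wnt7b and Nkd1 were given in all libraries, and values of Fzd1, Frzb, Rspo2 and Dkk2 for single groups, after their values were seen.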

Additional observations from a re-analysis of the deposited data

Results flagged for a closer look

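Within each group of 4 libraries, the highest or lowest level was compared with the rest by Dixon's ratio (gap to the nearest library over the whole range, critical value 0.829). Of 212 groups of Wnt pathway genes, 13 held such a library, and chance gives about 1 in 20. Values are CPM.

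High libraries in IM were all those of rat 3, the IM library with the largest osteoblast and osteocyte share (0.316%): 9.71 for Sost (others 0.134 to 0.452), 1.66 for Rnf43 (others 0.218 to 0.422) and 0.212 for Wnt1 (others 0). The part of bone RNA in these values was not tested. Lgr5 was low in IM of rat 4 at 0.632 (others 2.97 to 3.33). In PFNU, rat 4 was high for Dkk2 at 20.2 (others 7.70 to 9.82), for Wnt16 at 6.23 (others 1.06 to 1.74) and for Wnt1 at 0.140 (others 0 to 0.0208), and rat 1 was high for Sfrp4 at 329 (others 115 to 118).

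In PMMA bone, rat 1, the library with 6.42% erythroid counts, was low for Lrp5 at 69.6 (others 92.1 to 96.1) and for Vangl1 at 6.91 (others 13.7 to 14.2), and high for Wnt6 at 0.514 (others 0.196 to 0.238). The Wnt6 value came from 22 counts, against 14, 13 and 16 in PMMA bone of rats 2, 3 and 4. Rat 2 was high there for Fzd4 at 98.5 (others 72.7 to 75.3) and for Rspo2 at 3.17 (others 1.34 to 1.40). No such library was found in BNED.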

How the results depend on the processing

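Of the values of called members under the alternatives, 451 stayed past the threshold, 133 did not and none changed sign. Of those lost, 106 left out a library and 27 changed a setting. Member calls in IM over PFNU (2 with edgeR) numbered 4 with DESeq2 (Fzd2 and Sfrp4 higher in addition), 0 with limma-voom, 0 with only the 2 groups, 1 with the replicate block and 0 to 3 with a library left out. All-gene calls there (111) became 563, 2, 0, 47 and 11 to 244. In PMMA bone over BNED, member calls (7) became 10 with DESeq2 and 9 with limma-voom, 12 with only the 2 groups and 0 to 10 with a library left out, and all-gene calls (631) became 1518 with DESeq2, 1291 with limma-voom, 1767 with only the 2 groups and 0 to 2578. The interaction (0 members, 0 genes) gave 3 and 129 with DESeq2, and 0 to 2 and 0 to 199 with a library left out. In IM over PMMA bone, 15 members and 2860 genes became 9 and 908 with only the 2 groups, and 10 to 14 and 1818 to 4047 with a library left out. DESeq2 gave 16 and 3661 there, and limma-voom 15 and 2571, with 12 members shared with the main fit. In PFNU over BNED (15 members, 3884 genes), leaving out a library gave 10 to 15 members and 2637 to 3981 genes. There DESeq2 gave 17 and 4697, limma-voom 13 and 3866, and only the 2 groups 17 and 5443. The replicate block gave 5 members in PMMA bone over BNED, 13 in IM over PMMA bone and 15 in PFNU over BNED. It ended no call of a named gene other than those given above and added no member call. With it, calls of the second pathway list went from 3 to 2 in PMMA bone over BNED. They went from 8 to 12 in IM over PMMA bone and from 11 to 13 in PFNU over BNED. RLE factors moved the median of all genes by under 0.03 (log2) and ended no member call. Calls of the second pathway list in PMMA bone over BNED (3) became 9 with DESeq2, 6 with limma-voom and 13 with only the 2 groups, which gave 3 in IM over PMMA bone (8) and 21 in PFNU over BNED (11). The cause of these changes was not tested. Depth limits Wnt1, Wnt6, Wnt7b, Wnt9b, Fzd10 and the 6 genes under the filter, which had few counts.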
